A study of Mus musculus with 12 samples.

Results

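Pulmonary surfactant and the alveolar type 2 cell that makes it were followed through 10 genes on whole-lung arrays of mice: Sftpa1, Sftpb, Sftpc, Sftpd, Abca3, Lamp3, Muc1, Napsa, Slc34a2 and Lpcat1. All their probes were taken by gene name from the deposited array files, which gave 19 of the 41174 probes measured. Lpcat1 appears in those files under its older name Aytl2 and was matched through the transcript record of its probe; the other 9 genes carry their present symbol. After the filter on dim probes 18 of the 19 probes and all 10 genes were kept, among 30189 probes and 19823 genes in all. Where a gene had several kept probes it was represented by the brightest, and the differences of the others are given beside it where they bear on a call.

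The lungs came from 3 groups of 4 mice on a C57Bl/6 background, all labelled male and 12 weeks of age, with 1 array for each mouse. The first group was wild type and breathed room air, the second was wild type and was exposed to cigarette smoke, and the third carried a mutation of Rora, the nuclear receptor RORα, and was exposed to cigarette smoke. Smoke was given on 5 days a week for 4 months. The labelled 12 weeks are shorter than this, so they cannot be the age of the smoke-exposed mice at the end of exposure. The allele of the mutants and their relation to the wild-type mice are not given in the sources used here. No mutant lungs in room air were analysed here, so an effect of genotype and a genotype-dependent response to smoke cannot be told apart.

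Surfactant is a film of phospholipid and protein that lowers surface tension in the alveolus and keeps it from collapsing. Alveolar type 2 cells assemble its phospholipid and its small hydrophobic proteins, SP-B and SP-C, in lysosome-related organelles called lamellar bodies and secrete them by exocytosis. The large hydrophilic proteins SP-A and SP-D are collectins, soluble lectins of innate immunity that bind sugars on microbes and act on alveolar macrophages, and in mouse lung SP-A and SP-D are also made by airway club cells.

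Each array gave 1 colour of fluorescence for total lung RNA. Between 70.1% and 74.8% of probes were well above the local background on each array, and the 75th percentile of the signal ran from 785.2 to 1313 intensity units, the lowest and the highest both on wild-type smoke arrays (mice 4 and 2). Levels are given as log2 of the processed signal minus log2 of that array's 75th percentile, so a level of 0 is the brightness of the 75th percentile probe, and levels of different probes are not comparable. The Rora probe checked the genotype: its level was 1.10 ± 0.04 in wild-type room air, 1.18 ± 0.04 in wild-type smoke and -1.01 ± 0.10 in mutant smoke (mean ± SD, n = 4 each). Xist, the RNA of the inactive X chromosome of females, went against the shared label of male. Its level lay between 3.97 and 4.13 in the 4 arrays labelled wild-type room air and between -8.17 and -3.18 in the 8 smoke arrays. Both comparisons with room air therefore hold a sex-linked difference that cannot be told apart from smoke, while Xist was low in both smoke groups. Apart from 1 dim probe of Lamp3, every kept probe of the 10 genes was well above background on all 12 arrays.

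Promoters of 7 of the 10 genes were found in RefSeq's table for the GRCm38.p6 build; those of Sftpc, Sftpd and Napsa were not in it. The 250 bases before the transcription start are shown for 3 genes that were lower after smoke (Sftpa1, Lamp3 and Muc1) and for Sftpb, which was not. They are written 5′ to 3′ on the strand of the gene. Capitals mark matches, on either strand, to AGGTCA (the half-site read by ROR and other nuclear receptors), TGTTTAC (forkhead factors), CAAGTG and CTTGAG (NKX2-1, the lung homeobox factor) and TTGCGCAA or TTGCNNAA (C/EBP). TTGCGCAA is also a match to TTGCNNAA.
Sftpa1, chr14:41131538-41131787, plus strand: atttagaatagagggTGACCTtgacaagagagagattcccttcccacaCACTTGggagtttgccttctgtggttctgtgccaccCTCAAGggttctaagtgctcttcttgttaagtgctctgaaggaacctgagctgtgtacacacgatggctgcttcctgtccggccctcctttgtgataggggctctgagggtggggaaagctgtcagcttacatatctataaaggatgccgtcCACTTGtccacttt
Sftpb, chr6:72304360-72304609, plus strand: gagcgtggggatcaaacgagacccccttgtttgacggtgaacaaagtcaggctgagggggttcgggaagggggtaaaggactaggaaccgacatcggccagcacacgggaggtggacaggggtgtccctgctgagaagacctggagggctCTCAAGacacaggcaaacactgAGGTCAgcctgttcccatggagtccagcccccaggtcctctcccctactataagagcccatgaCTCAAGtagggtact
Lamp3, chr16:19706366-19706615, minus strand: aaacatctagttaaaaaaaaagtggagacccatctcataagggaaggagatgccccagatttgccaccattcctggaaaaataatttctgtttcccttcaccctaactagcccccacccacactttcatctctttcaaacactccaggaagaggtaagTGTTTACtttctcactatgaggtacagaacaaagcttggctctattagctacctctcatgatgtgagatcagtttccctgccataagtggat
Muc1, chr3:89228806-89229055, plus strand: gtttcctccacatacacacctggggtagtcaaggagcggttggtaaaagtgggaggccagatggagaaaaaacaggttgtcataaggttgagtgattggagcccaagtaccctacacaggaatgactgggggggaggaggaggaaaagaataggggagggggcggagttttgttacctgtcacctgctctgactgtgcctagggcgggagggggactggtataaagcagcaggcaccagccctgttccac

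The Sftpa1 window held AGGTCA on its minus strand at -235 to -230 relative to the start. It also held CAAGTG at -202 to -197 and at -14 to -9, and CTTGAG at -166 to -161, all on the minus strand. Sftpb held AGGTCA on the plus strand at -78 to -73 and CTTGAG on the minus strand at -100 to -95 and -15 to -10. Lamp3 held TGTTTAC at -92 to -86. Muc1 held none of the motifs, nor did the windows of Abca3 and Lpcat1. Slc34a2 held TTGCGCAA at -48 to -41. The longer ROR element TAGGTCA, which 2.23% of the 32851 mouse promoters of this length contain, was in none of the 7 windows. AGGTCA was in 14.02% of them, CAAGTG in 11.6%, CTTGAG in 13.3%, TGTTTAC in 3.17%, TTGCNNAA in 9.56% and TTGCGCAA in 0.164%. These matches are letters in a window and say nothing of binding.

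The first comparison set wild-type smoke against wild-type room air. These groups also differed in Xist, so smoke and a sex-linked difference cannot be told apart. Below, "fell" and "after smoke" name the difference between these groups and not its cause. The 2 collectin genes, the lamellar body gene Lamp3 and the mucin Muc1 were lower after smoke, and the gene of the hydrophobic protein SP-B did not pass the test. Of the 10 genes, 4 were lower and 0 higher at an adjusted p under 0.05 (limma across all 19823 genes, two-sided, Benjamini-Hochberg), against 2.55% of all genes lower and 2.31% higher. The median difference was -0.13 on the log2 scale (-0.18 without Sftpc, whose probe was saturated), beside -0.01 over all genes. In 5 of the 10, no smoke array reached the lowest room air array, a separation found for 6.91% of all genes. The 10 genes were chosen with earlier results of these data known. Here and in the later comparisons, shares of all genes therefore describe the setting and do not test the 10 as a set. In whole lung, fewer type 2 cells and less RNA per cell cannot be told apart.

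**Figure D1:**
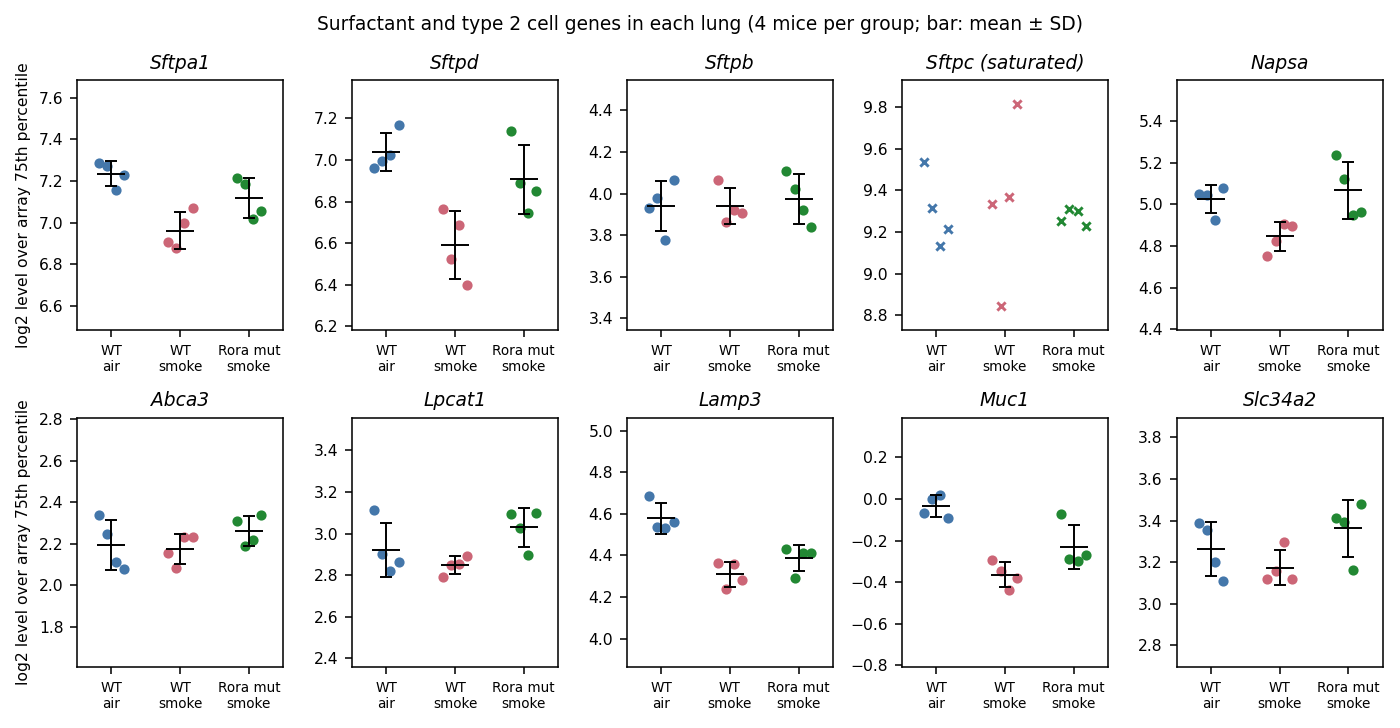
Level of each of the 10 genes in each mouse, on the vertical axis as log2 over the array's 75th percentile (all panels span the same number of log2 units), in wild-type room air, wild-type smoke and Rora mutant smoke; points are arrays in replicate order and bars are mean ± SD (n = 4). Sftpa1, Sftpd, Lamp3, Muc1 and Napsa have no overlap between room air and wild-type smoke; the crosses for Sftpc are levels of a probe saturated on 10 of 12 arrays and carry no bar.

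Sftpa1, which encodes the collectin SP-A, read 7.29, 7.27, 7.16 and 7.23 in the room air arrays of mice 1 to 4 and 6.91, 6.88, 6.996 and 7.07 in the wild-type smoke arrays. All smoke arrays were below all room air arrays. The difference was -0.27 ± 0.06 (log2, SE, adjusted p = 0.0321), and the level fell by 17.3%. Its second probe, placed downstream of the first on chromosome 14 (chr14:40044377-40044436 against chr14:40042931-40042990, mm8 build of the array files), separated the groups too. It read 3.65, 3.59, 3.67 and 3.67 in room air and 3.27, 3.34, 3.48 and 3.35 after smoke. It differed by -0.28 ± 0.06 (adjusted p = 0.0228 over all kept probes, of which 2.09% were lower).

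Sftpd encodes SP-D, the collectin that also controls surfactant pool size. It had the largest fall among the genes with an unsaturated probe. Its only probe (chr14:40080953-40081012, mm8) read 6.96, 6.99, 7.02 and 7.17 in room air and 6.76, 6.52, 6.68 and 6.40 after smoke, with no overlap. The difference was -0.45 ± 0.10 (adjusted p = 0.0262), and the level fell by 26.6%. Wild-type smoke mouse 4 was the lowest of all 12 arrays. The probes of Sftpa1 and Sftpd lie 38.0 kb apart on chromosome 14, with a probe of another collectin gene, Mbl1, between them. Mbl1, which encodes mannose-binding lectin A, had a level of -2.72 ± 0.13 in room air and -3.03 ± 0.07 after smoke, and its difference of -0.30 ± 0.10 did not pass (adjusted p = 0.118).

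Sftpb encodes SP-B, without which lamellar bodies do not form properly. It read 3.93, 3.98, 3.78 and 4.07 in room air and 4.06, 3.86, 3.92 and 3.91 after smoke, and the ranges overlapped. Both means were 3.94, and the 95% interval of the difference ran from -0.17 to 0.17. An increase or decrease of that size remains within these data.

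Sftpc, which encodes SP-C and is the gene most used to mark type 2 cells, could not be compared. Its only probe was saturated on 10 of 12 arrays, all 8 smoke arrays and 2 of the 4 room air arrays. Its signal lay between 602634 and 707750 intensity units, a 1.17-fold range, while the 75th percentile of the arrays varied 1.67-fold. The scaled level was lowest, 8.84, on the brightest array and highest, 9.82, on the dimmest, so it followed the array's scale. No fold is given for it.

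**Figure D2:**
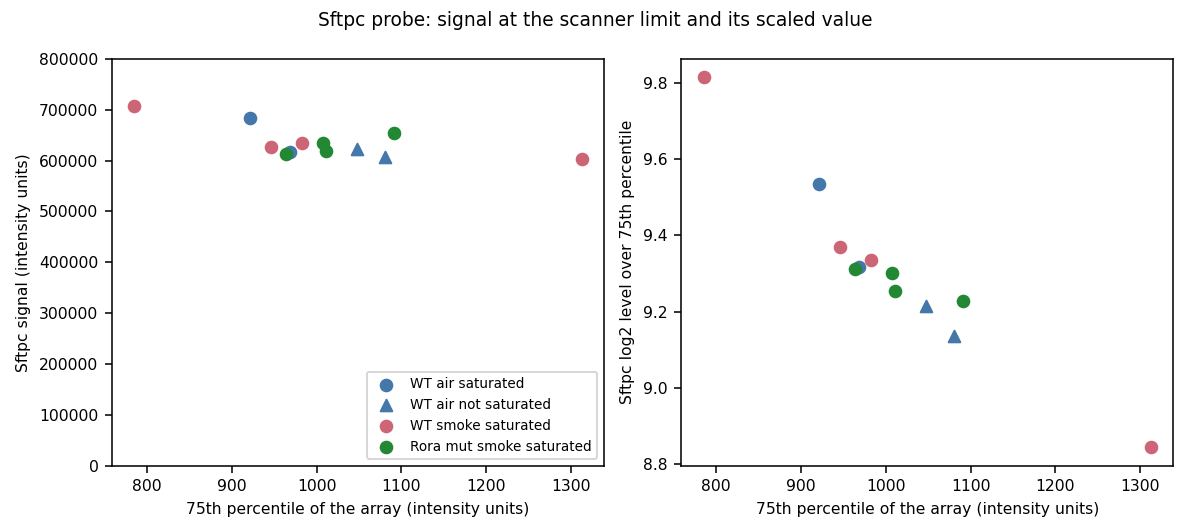
Sftpc on each array against that array's 75th percentile of signal in intensity units: left, its processed signal in intensity units; right, its scaled log2 level. Circles are saturated and triangles unsaturated spots; the signal stays between 602634 and 707750 units while the scaled level falls as the 75th percentile rises.

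Among the genes that build and fill the lamellar body, Lamp3 alone passed the test. Lamp3 encodes a lysosome-associated membrane protein (DC-LAMP) in the limiting membrane of the lamellar body. It read 4.69, 4.54, 4.53 and 4.56 in room air and 4.36, 4.24, 4.36 and 4.28 after smoke, with no overlap. The difference was -0.27 ± 0.06 (adjusted p = 0.0199), a level that fell by 17.0%. The 3 other kept Lamp3 probes differed by -0.27, -0.21 and -0.36, and none of them passed over all probes (adjusted p = 0.102, 0.361 and 0.234).

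Napsa encodes napsin A, an aspartic protease that trims the SP-B precursor. It read 5.05, 5.05, 4.92 and 5.08 in room air and 4.75, 4.82, 4.91 and 4.90 after smoke. The groups did not overlap, but the nearest arrays differed little and the difference of -0.18 ± 0.07 did not pass (adjusted p = 0.202). Abca3, the transporter that loads phospholipid into lamellar bodies, read 2.34, 2.24, 2.11 and 2.08 in room air and 2.15, 2.09, 2.23 and 2.23 after smoke. The ranges overlapped, and the difference of -0.02 had a 95% interval from -0.17 to 0.13; its 2 other kept probes differed by 0.04 and -0.09 and did not pass. Lpcat1, the acyltransferase that remodels phosphatidylcholine into the disaturated surfactant form, read 3.11, 2.90, 2.82 and 2.86 in room air and 2.79, 2.85, 2.85 and 2.89 after smoke. Its difference was -0.08 (adjusted p = 0.641, 95% interval -0.23 to 0.08).

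At the apical membrane, Muc1 fell and Slc34a2 did not pass. Muc1 encodes a membrane-bound mucin of type 2 and airway cells. It read -0.07, 0.00, 0.02 and -0.09 in room air and -0.29, -0.35, -0.44 and -0.38 after smoke, again with no overlap. The difference was -0.33 ± 0.06 (adjusted p = 0.0104), and the level fell by 20.4%. Its second probe differed by -0.29 ± 0.09 (adjusted p = 0.0906 over probes). Slc34a2, the sodium-phosphate cotransporter that takes back phosphate from the alveolar fluid, read 3.39, 3.35, 3.20 and 3.11 in room air and 3.12, 3.16, 3.30 and 3.12 after smoke. Its difference was -0.09 (adjusted p = 0.647). On its second probe the groups did not overlap, by a narrow margin, but the difference of -0.10 ± 0.12 did not pass (adjusted p = 0.729 over probes).

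The arrays lay on 3 slides that each held all groups. With the slide as a block the adjusted p was 0.0485 for Sftpa1, 0.0385 for Sftpd, 0.0300 for Lamp3 and 0.0274 for Muc1. On slides 1, 2 and 3 the difference was -0.35, -0.30 and -0.16 for Sftpa1. It was -0.30, -0.53 and -0.34 for Sftpd, and -0.26, -0.28 and -0.17 for Lamp3. It was -0.21, -0.37 and -0.45 for Muc1, so all 4 genes were lower on every slide. Leaving out both the brightest and the dimmest array, wild-type smoke mice 2 and 4, an alternative added after the data were seen, left 0 genes called. The differences were then -0.28, -0.31, -0.22 and -0.33 for Sftpa1, Sftpd, Lamp3 and Muc1 (adjusted p = 0.115, 0.223, 0.188 and 0.0928). With normexp background correction 0 of the 10 genes and 13 of all genes were lower. With the array median as the scale Sftpa1 was not called (-0.24, adjusted p = 0.0735), with no filter on dim probes neither Sftpa1 nor Sftpd was (adjusted p = 0.0643 and 0.0536), and with the mean of all kept probes Lamp3 was not (-0.28, adjusted p = 0.0636). The Muc1 call held whichever single array was left out. Lamp3 lost its call without wild-type smoke mouse 2 or 4 (adjusted p = 0.0599 and 0.0540). Sftpd lost it without room air mouse 2, 3 or 4 or wild-type smoke mouse 2 or 4, and Sftpa1 without room air mouse 1, 2 or 4 or wild-type smoke mouse 1, 2 or 3, with adjusted p between 0.0538 and 0.0933 for these 2 genes.

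The second comparison asked how the Rora mutant differed from the wild type when both were exposed to smoke. It uses the same wild-type smoke arrays as the first. None of the 10 genes passed: 0 were higher and 0 lower at an adjusted p under 0.05 (limma), against 2.48% and 3.56% of all genes. At an unadjusted p under 0.05, 5 genes were higher in the mutant (9.52% of all genes) and 0 lower (11.6%). The median difference was 0.14 (0.16 without Sftpc), beside 0.0021 over all genes. In 2 genes, Napsa and Lpcat1, every mutant array was above every wild-type smoke array, as in 6.55% of all genes.

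**Figure D3:**
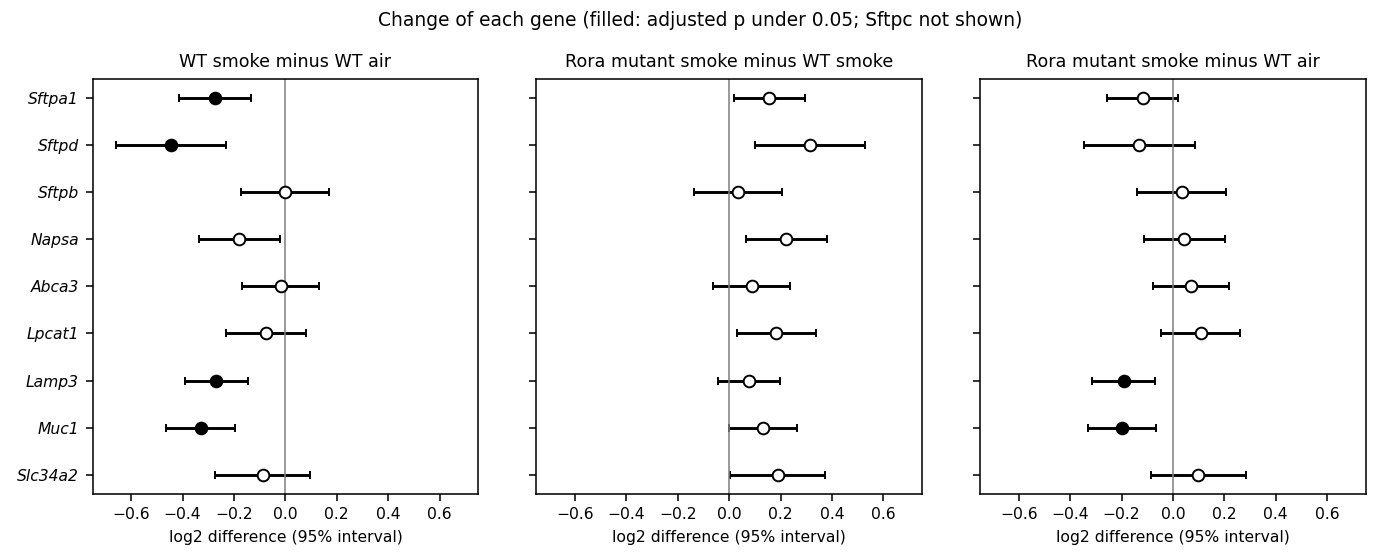
Difference of 9 genes in the 3 comparisons on the log2 scale, with 95% intervals; filled points passed at adjusted p under 0.05. In the left panel Sftpa1, Sftpd, Lamp3 and Muc1 are filled below 0, in the middle panel no point is filled, and in the right panel Lamp3 and Muc1 are filled.

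Napsa read 5.24, 5.12, 4.95 and 4.96 in mutant smoke arrays 1 to 4, above the wild-type smoke maximum of 4.91. The difference was 0.22 ± 0.07 (adjusted p = 0.0949). Lpcat1 read 3.096, 3.028, 2.900 and 3.0999 in the mutants, above the wild-type smoke maximum of 2.89, and differed by 0.18 ± 0.07 (adjusted p = 0.157). Mutant mouse 3 was the lowest of its group for Lpcat1, close to the wild types. On slides 1, 2 and 3 the difference was 0.49, 0.26 and 0.05 for Napsa and 0.31, 0.16 and 0.15 for Lpcat1.

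Of the collectins, Sftpd read 7.14, 6.89, 6.75 and 6.85 in the mutants, with 3 of 4 arrays above the wild-type smoke range. Its difference of 0.31 ± 0.10 did not pass (adjusted p = 0.0858). Sftpa1 read 7.21, 7.18, 7.02 and 7.05, and the ranges overlapped. The difference was 0.16 ± 0.06 (adjusted p = 0.182). On slides 1, 2 and 3 Sftpd differed by 0.38, 0.43 and 0.11 and Sftpa1 by 0.31, 0.21 and 0.04. The 2 probes of Sftpa1 did not give the same call. The second probe read 3.72, 3.65, 3.52 and 3.65 in the mutants, all above the wild-type smoke arrays, and its difference of 0.28 ± 0.06 passed over all kept probes (adjusted p = 0.0227, against 2.07% of probes higher). With the mean of both probes the difference was 0.22 (adjusted p = 0.0424), and with scaling to the array median Sftpd was called at 0.36 (adjusted p = 0.0491). Mbl1, between them on the chromosome, had a level of -2.71 ± 0.21 in the mutants and did not pass (adjusted p = 0.0890).

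The remaining genes stayed within overlapping ranges. Slc34a2 read 3.41, 3.40, 3.16 and 3.48 in the mutants (difference 0.19 ± 0.08, adjusted p = 0.222, and 0.18 on its second probe). On slides 1, 2 and 3 Slc34a2 differed by 0.29, 0.26 and 0.02. Muc1 read -0.07, -0.29, -0.30 and -0.27 (0.13 ± 0.06, adjusted p = 0.243), with mutant mouse 1 apart from the other 3, and its second probe differed by 0.22 ± 0.09 (adjusted p = 0.155 over probes). Abca3 read 2.31, 2.19, 2.22 and 2.34 (0.09 ± 0.07, adjusted p = 0.515), and its other kept probes differed by 0.03 and 0.20 and did not pass. Sftpb read 4.11, 4.02, 3.92 and 3.84, and its difference of 0.03 had a 95% interval from -0.14 to 0.21.

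The Lamp3 probes did not all give the same call. The brightest probe read 4.43, 4.29, 4.41 and 4.41 in the mutants, a difference of 0.08 ± 0.06 from wild-type smoke (adjusted p = 0.482). A dim probe of a separate Lamp3 transcript record (chr16:19618480-19618539, mm8) read -5.99, -6.36, -6.32 and -5.99 in wild-type smoke and was well above background on all 4 of those arrays, but on 0 of 4 mutant arrays. Its signal was at least 1.33-fold lower in the mutant, taken against the lowest signal well above background on each mutant array. The filter kept this probe through the wild-type arrays alone, a choice that favours a lower mutant value. The limma test (adjusted p = 0.0059, against 3.75% of probes lower) used the measured values and not this bound. It is therefore not counted as support for a difference. The measured means of the probe were -6.17 in wild-type smoke and -7.11 in the mutant. The other 2 Lamp3 probes differed by 0.0061 and -0.06, and neither passed. A mean over all kept probes gave -0.23, but that mean includes the dim probe, whose mutant values were not well above background.

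**Figure D4:**
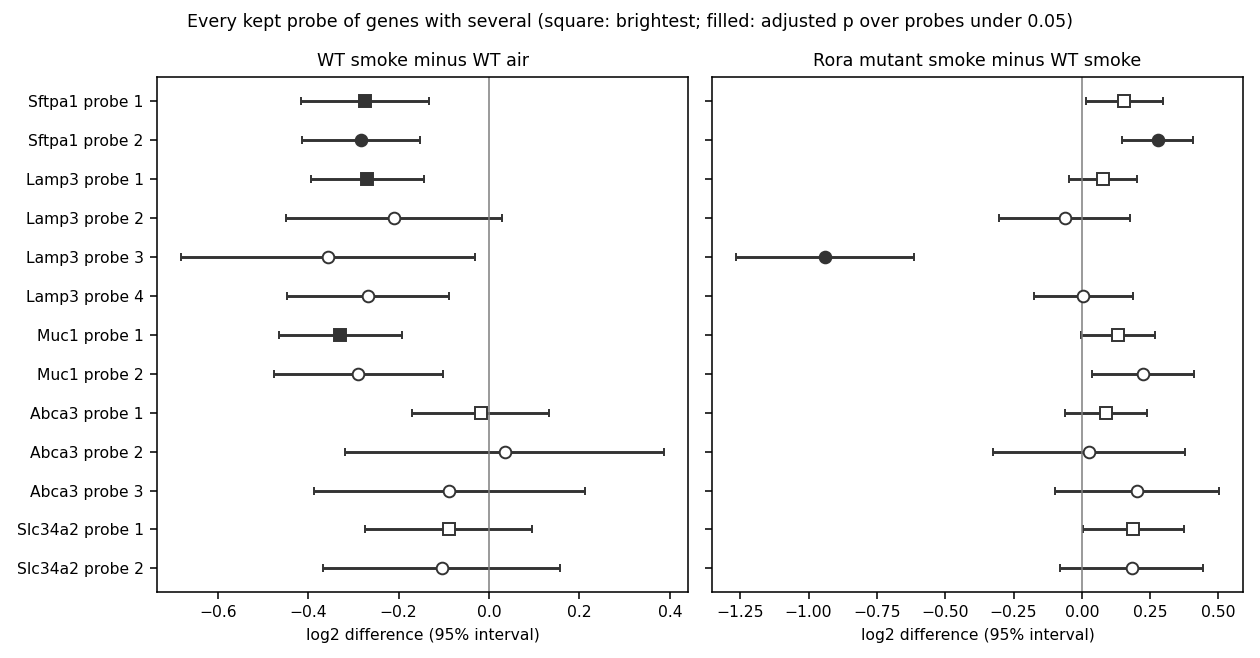
Log2 difference with 95% interval of every kept probe of the 5 genes that have several, for wild-type smoke against room air (left) and Rora mutant against wild type under smoke (right; the axes differ). Squares are the brightest probes, and filled points passed over all kept probes. In the right panel the second Sftpa1 probe is filled above 0 and 1 dim Lamp3 probe is filled below 0. That Lamp3 probe was not well above background on the mutant arrays.

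The third comparison set the smoke-exposed mutants against wild-type room air and shares its arrays with the other 2. The Xist difference lies in this comparison as well. Of the 10 genes 2 passed, Lamp3 and Muc1, both lower, against 16.7% of all genes in either direction (1323 higher and 1990 lower of 19823). The count of 2 is close to that share and is not read as a result about the 10 genes as a set. The median difference was 0.034 without Sftpc and 0.0034 with it, beside -0.0063 over all genes. Lamp3 differed by -0.19 ± 0.06 (adjusted p = 0.0366), with every mutant array below every room air array (11.7% of all genes). Muc1 differed by -0.20 ± 0.06 (adjusted p = 0.0456), with mutant mouse 1 inside the room air range, and its adjusted p was 0.0910 with the slide as a block. The second Muc1 probe differed by -0.07 (adjusted p = 0.649 over probes), and the difference was -0.13 with the mean of both probes (adjusted p = 0.201) and -0.12 with median scaling. On slides 1, 2 and 3 Lamp3 differed by -0.19, -0.24 and -0.12 and Muc1 by 0.0050, -0.29 and -0.30. Leaving out 1 array ended both calls in most cases: any room air or mutant array for Lamp3, with adjusted p between 0.0501 and 0.0916, and any array but mutant mouse 1 for Muc1, with adjusted p between 0.0502 and 0.110. The other 8 genes did not pass, with differences of -0.12 ± 0.06 for Sftpa1 and -0.13 ± 0.10 for Sftpd. For Sftpa1 and Muc1 the call depended on the scale. With quantile normalization Sftpa1 was called at -0.19 (adjusted p = 0.0444) and Muc1, at -0.18, was not (adjusted p = 0.0540). The authors' deposited values likewise gave -0.20 for Sftpa1 (adjusted p = 0.0355) and -0.19 for Muc1 (adjusted p = 0.0523). Of 24 alternatives, the Muc1 call was lost in 22 and the Lamp3 call in 12. The second Sftpa1 probe on the main scale differed by -0.0065 (adjusted p = 0.956 over probes).

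Averaged over the 9 genes without Sftpc, each taken as its deviation from its own mean over the 12 arrays, room air arrays lay between 0.0064 and 0.13. Wild-type smoke arrays lay between -0.16 and -0.08, below every other array. Mutant arrays spread from -0.05 to 0.15 and overlapped room air. Mutant mouse 1 was the highest array of all, and mutant mouse 3 was the lowest of its group.

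Other genes of the type 2 cell and of surfactant were taken from lists of textbook members, described here by counts. Of all genes, 2.31% were higher and 2.55% lower after smoke, and 2.48% and 3.56% between the smoke groups. Against room air 16.7% of all genes passed in either direction. The lists were chosen with earlier results of these data known. Their counts are therefore a description, and setting them beside these shares is not a test of a list. A call that was lost in many of the 24 alternatives is given with that number. Of 23 other type 2 markers measured, 3 were lower and 0 higher after smoke in wild types (median -0.11). They were Mfsd2a, a lysophospholipid transporter (-0.97 ± 0.12, adjusted p = 9.1e-04), Il33, the alarmin interleukin 33 (-0.74 ± 0.10), and Hc, complement C5 (-0.33 ± 0.08, lost in 15 alternatives). In the mutant against wild type under smoke, Mfsd2a was higher (0.80 ± 0.12) as was S100g, a calcium-binding protein (0.33 ± 0.08, lost in 11 alternatives). Rasgrf1, a guanine nucleotide exchange factor, was lower (-0.67 ± 0.12) on all 3 of its probes but differed by 0.10 with normexp background, and the median of the 23 was 0.02. The third comparison had 2 higher and 5 lower, among them Rasgrf1 at -0.90, Il33 at -0.67 and Ppp1r14c, a phosphatase inhibitor, at -0.50, whose 2 other probes did not pass.

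Of 25 genes of surfactant lipid synthesis, 1 was lower after smoke in wild types, Scd1, a fatty acid desaturase (-0.55 ± 0.13, lost in 11 alternatives; median of the list -0.09). Against wild-type smoke, the mutants had 2 higher: Fasn, fatty acid synthase (0.27 ± 0.07, lost in 15 alternatives), and Plin2, a lipid droplet coat protein (0.24 ± 0.06, lost in 11). Against room air the mutants had 1 higher, Plin2 (0.43), and 6 lower, with Srebf2, a master regulator of sterol synthesis, at -0.29 on its brightest probe (2 of its 3 other probes did not pass) and Mid1ip1, an activator of acetyl-CoA carboxylase, at -0.40. Of 25 genes of protein processing, lamellar bodies and secretion, 2 were lower after smoke (median 0.03). They were Syt7, a calcium sensor of lysosomal exocytosis (-0.50 ± 0.09), and Adora2b, an adenosine receptor (-0.61 ± 0.12). The second Syt7 probe differed by -0.18 and did not pass (adjusted p = 0.628 over probes). Syt7 was the only one called in the mutant under smoke, at 0.63 ± 0.09, but its second probe, at -0.12, again did not pass. Against room air Rab27a, a vesicle GTPase, was lower in the mutants (-0.25), though its second probe did not pass and the call was lost in 21 alternatives.

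Of 24 transcription factors and growth factor receptors of type 2 cells, 0 passed after smoke in wild types (median -0.07). In the mutants under smoke, Tfcp2l1 (0.38 ± 0.08) and Egfr, the epidermal growth factor receptor (0.27 ± 0.06), were higher, though none of the other probes of either gene passed. Of these, 1 Tfcp2l1 probe differed by -0.25, and the Egfr call was lost in 10 alternatives. Against room air Egfr (0.32) and Cebpb (0.44) were higher among 2 higher and 2 lower. The other Egfr probes there differed by 0.12, 0.27, -0.10 and 0.38, and only the last passed (adjusted p = 0.0376 over probes, limma). Of 4 other collectins measured, 2 were lower after smoke, Colec11 (-0.37 ± 0.09) and Colec10 (-0.82 ± 0.21), calls that were lost in 16 and 18 alternatives. Between the smoke groups 0 passed, and Colec10 was lower in the mutants against room air (-0.92, but 0.0075 with normexp).

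**Figure D5:**
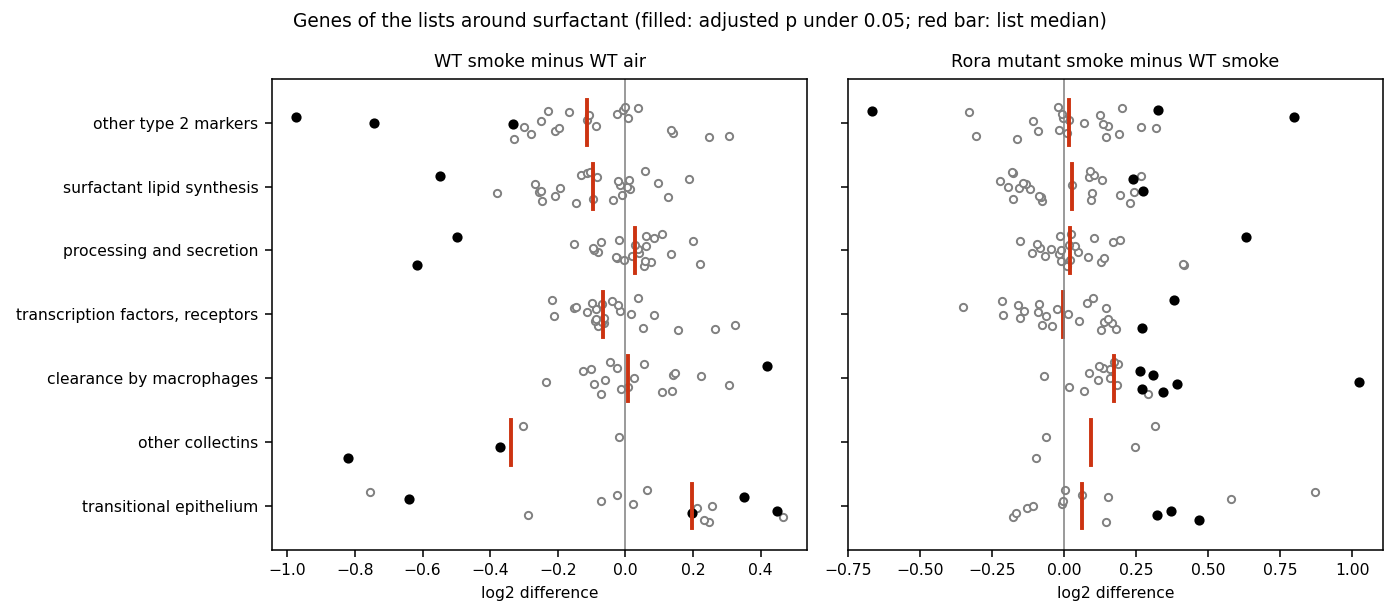
Log2 difference of every measured gene of 7 lists in wild-type smoke against room air (left) and Rora mutant against wild type under smoke (right; the axes differ); filled points passed at adjusted p under 0.05 and red bars are list medians. In the clearance list 1 of 19 genes is filled on the left and 6 of 19 on the right, all above 0.

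Surfactant is cleared by alveolar macrophages as well as by type 2 cells. Of 19 clearance genes, 1 was higher after smoke in wild types, Pparg, the nuclear receptor of macrophage lipid handling (0.42 ± 0.07, median of the list 0.0089). In the mutants under smoke 6 were higher and 0 lower (median 0.17). Csf2rb, a subunit of the receptor for GM-CSF, was higher by 0.39 ± 0.06 on its brightest probe, while its other probes, at 0.30 and 0.13, did not pass. Abcg1, a cholesterol exporter, was higher by 0.34 ± 0.06 and Nceh1, a cholesteryl ester hydrolase, by 0.31 ± 0.05. Against room air 9 were higher and 0 lower, with Pparg at 0.54. The summed level of 10 alveolar macrophage markers, in multiples of the 75th percentile, was 96.8 to 105.7 in room air, 98.8 to 115.6 in wild-type smoke and 132.2 to 194.8 in the mutants, and 6 of these 10 were higher in the mutants under smoke. Its part in the clearance genes was not tested.

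Of 15 genes of transitional or injured alveolar epithelium, 3 were higher and 1 lower after smoke in wild types (median 0.20). Lgals3, galectin 3, was higher by 0.35 ± 0.07 and Itgb6, an integrin of injured epithelium, by 0.45 ± 0.09, although the 2 other Itgb6 probes did not pass. Hbegf, a ligand of the epidermal growth factor receptor, was higher by 0.20 ± 0.05, a call lost in 17 alternatives, and Lcn2, an iron-binding secretory protein, was lower (-0.64). In the mutants under smoke Cdkn1a, the cell cycle inhibitor p21, was higher by 0.47 ± 0.08 and Clu, clusterin, by 0.32 ± 0.07, and Itgb6 by 0.37 ± 0.09, calls lost in 10 alternatives for Clu and 13 for Itgb6, and 1 of the other Itgb6 probes differed by -0.05. Against room air the mutants had 3 higher and 0 lower, with Itgb6 at 0.82, Cdkn1a at 0.70 and Lgals3 at 0.50. The other Itgb6 probes differed by 0.26 and 0.47 there and did not pass.

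Markers of neighbouring cells give the setting of these values. Their counts stand beside 2.31% of all genes higher and 2.55% lower after smoke, and 2.48% and 3.56% between the smoke groups. For the mutants against room air, 1323 genes were higher and 1990 lower of 19823. These lists were also chosen with earlier results known. A summed level is carried mostly by its brightest probes. The summed level of 8 pan-epithelial markers was 93.6 to 99.7 in room air, 91.1 to 107.6 in wild-type smoke and 91.4 to 101.2 in the mutants. In the first and the second comparison 0 of the 8 passed, and in the third 1 was lower. Of 18 alveolar type 1 markers 1 was higher after smoke in wild types, 0 passed between the smoke groups and 8 were higher in the mutants against room air. Their sum was 650.0 to 676.8 in room air, below all values of 707.0 to 772.0 in wild-type smoke and 723.6 to 762.9 in the mutants. Of 12 club cell markers, 3 were lower after smoke, 1 between the smoke groups and 7 in the mutants against room air. Their sum was 987.4 to 1059 in room air, 825.5 to 1120 in wild-type smoke and 830.5 to 955.5 in the mutants. After smoke in wild types their median difference was -0.21, with 10 of the 12 below 0. Of 12 ciliated cell markers 0, 2 and 7 were lower in the 3 comparisons. Muscle markers passed in none of the 3. The 7 of cardiac muscle had medians of -0.25 after smoke, 0.36 between the smoke groups and 0.06 against room air, and the 6 of smooth muscle -0.26, 0.10 and -0.15. Goblet cell markers had the lowest median of these lists, -1.74: 7 of 8 were lower after smoke, with sums of 11.7 to 38.9 in room air, 2.74 to 4.600 in wild-type smoke and 1.80 to 2.23 in the mutants. Muc1, Sftpa1 and Sftpd are also made outside type 2 cells, and the part of any of these cell types in the differences was not tested.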

How the data were processed

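Whole-lung RNA of 12 mice was labelled from 100 ng and hybridised to 1-colour Agilent arrays. Per the file headers and the submitters' processing notes, the authors extracted processed signal intensity with Agilent Feature Extraction 9.5.3.1, subtracting background and detrending within each array. The authors' deposited value table, on the log2 scale, had the same median in every column.

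Outlier and control spots were left out, spots of a probe averaged, and log2 intensity scaled to the 75th percentile of each array. A probe was kept if it was well above background on at least 4 arrays and had values from at least 3 arrays of each group. The 3 comparisons were tested in 1 fit over all 12 arrays (limma 3.58.1, R 4.3.3; two-sided, Benjamini-Hochberg over 19823 genes, or over 30189 probes where single probes are named; threshold 0.05). Intervals are 95% intervals of the fit. Symbols were updated through RefSeq tables. The pipeline was tested on simulated data. The number of arrays limits the precision. P-values rest on the spread between arrays within groups, pooled over the 3 groups. With 1 array for each mouse, spread between mice and spread between arrays cannot be told apart.

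Named genes are the 10 members, up to 3 genes per list and comparison with the smallest adjusted p among those that passed (1 gene that passed is not reported here), and the 5 genes most like the members' mean pattern. Lcn2 and Mbl1 were singled out after their values were seen. The members and lists were chosen with earlier results of these data known. Alternatives were slide and replicate as blocks, quantile and median scaling, normexp background (offset 50), the authors' table, no filter, other probe rules, fewer samples and single arrays left out.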

Additional observations from a re-analysis of the deposited data

Results flagged for a closer look

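Among 54 groups of 4 arrays checked, 1 for each probe and group, 6 held an array far from the other 3 by Dixon's ratio of gap to range; chance alone gives about 1 in 20 groups. The brightest Lamp3 probe was lowest in mutant smoke mouse 2, at 4.29, with the nearest array at 4.41. Another Lamp3 probe was highest in mutant smoke mouse 1, at 0.27 against 0.07. The brightest Muc1 probe was also highest in mutant smoke mouse 1, at -0.073 against -0.27, the array inside the room air range. The second Muc1 probe was highest in wild-type smoke mouse 2, at -0.64 against -0.78. The second Slc34a2 probe was highest in room air mouse 1, at 1.41 against 1.33. It was lowest in mutant smoke mouse 3, at 0.99 against 1.55.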

How the results depend on the processing

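In wild types, the 4 lower genes became 2 with the replicate number as a block and 2 with no filter on dim probes. They became 0 with normexp background and 0 without the brightest and dimmest array, and ranged from 1 to 4 without a single array. All genes lower after smoke (506) became 335 with the slide block and 332 with the replicate block; higher and lower were 40 and 13 with normexp, 294 and 270 with no filter and 198 and 135 without both extreme arrays (275 to 459 and 264 to 502 without 1 array). Between the smoke groups 1 gene, Sftpd, was called higher with median scaling and 1, Sftpa1, with the mean of all kept probes. All genes higher and lower there were 14 and 16 with normexp, 298 and 390 with no filter and 190 and 349 without both extreme arrays; lower were 411 with only the compared groups (281 to 465 and 298 to 732 without 1 array). Against room air the 2 lower genes of the mutants became 1 with the slide block, with the replicate block, with the mean of all kept probes, with every kept probe and without both extreme arrays. They became 0 with median scaling, with normexp, with no filter and with only the compared groups (0 to 1 without 1 array). All genes higher and lower were 90 and 92 with normexp, and 2962 were higher with median scaling (881 to 1263 and 1342 to 1965 without 1 array). Median scaling gave 592 higher and 351 lower after smoke, 687 and 530 between smoke groups and 2962 and 1403 against room air, which moved the share of higher calls by over 10 points. The replicate numbers did not pair the arrays: correlations of same-numbered arrays ran from -0.10 to 0.22. Some differences changed sign, most of them near 0. After smoke, Sftpb was 0.026 with the slide block, 0.036 with median scaling, 0.081 with normexp, 0.053 without both extreme arrays and -0.054 to 0.042 without 1 array. Abca3 was 0.018 with median scaling, 0.048 with normexp and -0.057 to 0.031 without 1 array, and Lpcat1 was 0.013 with normexp. Between the smoke groups Sftpb was -0.075 with normexp, -0.020 without both extreme arrays and -0.012 to 0.079 without 1 array. With normexp Abca3 was -0.031, and 2 called genes turned, Gp2 from -1.61 to 0.10 and Rasgrf1 from -0.67 to 0.10, and Lamp3 was -0.23 with the mean of all kept probes, which includes a dim probe not above background in the mutants. Normexp moved the median of all genes by 0.10 in that comparison. Against room air Sftpb was -0.020 to 0.079 and Napsa -0.013 to 0.083 without 1 array; with normexp Napsa was -0.012, and Colec10 and Upk3a, both called at -0.92, were 0.0075 and 0.074. The cause of these changes was not tested. Saturation limits Sftpc, and background limits the dim Lamp3 probe.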

Other observations

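The genes outside the list whose levels most resembled the mean pattern of the 10 genes over the 12 arrays, each gene centred and divided by its SD, were Paqr8 (Pearson r = 0.93), Itga7 (0.91), Cma1 (0.91), Sult4a1 (0.89) and Ctsc (0.88). The ranking is a description of arrays that share group, slide and scaling. Without Sftpc in the pattern, 4 of these 5 stayed among the nearest 5, and Cma1 did not (r = 0.89). Ctsc encodes cathepsin C, a protease that activates granule serine proteases. Its level was 3.44 ± 0.05 in room air, 3.15 ± 0.04 in wild-type smoke and 3.46 ± 0.07 in mutant smoke (SD, n = 4 each). Cma1, a mast cell chymase, was -1.68 ± 0.27, -2.43 ± 0.27 and -1.68 ± 0.14 in the same order. Since these genes were chosen for following the pattern on the same arrays, their levels are a description and no test of them is given.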
